A study of Mus musculus with 6 samples.

Results

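Cholesterol synthesis and efflux genes were followed in the retina as a list of 28 genes. It is made of 18 enzymes that build sterols, 6 SREBP control genes, and 4 genes of sterol export and of the oxysterol receptors LXR. The SREBP control genes are Srebf1 and Srebf2, which encode the SREBP transcription factors, their regulators Scap, Insig1 and Insig2, and the SREBP target Stard4. The list names genes by known function, with no measured value in the rule, but was chosen with earlier results of these data known. Each gene was found in the count table by its Ensembl identifier. Of 32285 genes listed there, 20021 reached 10 counts over all retinas, the minimum for a test, and all 28 were among them. By the paper's account, RNA came from 3 OIR-CIH and 3 OIR-Norm eyes, dissected at postnatal (PN) day 18, of wild-type C57BL/6J mice. Both groups had gone through oxygen-induced retinopathy (OIR), in which 75% O2 from PN8 to PN13 removes central retinal capillaries and the return to room air leaves that area ischemic. OIR-CIH pups then differed by chronic intermittent hypoxia (CIH), a daily programme of 10 h in which O2 swung between 20.95% and 5% in 266 cycles of 135 s each. OIR-Norm pups had the same gas flow and noise at constant O2, so that each comparison is of CIH on top of OIR, all 6 retinas having had OIR. Measured per gene were whole-number read counts from poly(A)-selected stranded libraries.

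Cells make cholesterol from acetyl-CoA through mevalonate, squalene and lanosterol. When membrane sterol is scarce, Scap carries the SREBP proteins, held back by the Insig proteins when sterol is plentiful, to the Golgi, where they are cut and released to switch on the enzymes. When oxysterols accumulate, the LXR receptors switch on exporters such as Abca1 and Abcg1. In the retina, Müller glia and pigment epithelium are known for local sterol supply, and photoreceptor outer segments for a steady demand for membrane lipid. Several steps of synthesis consume oxygen, those of Sqle, Cyp51, Msmo1 and Sc5d among them.

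The start regions of 23 members were in the RefSeq promoter table (GRCm38.p6), which spans 250 bases before to 50 after each start and holds 32 starts of these members. Entries were missing for Abcg1, Stard4, Fdft1, Sqle and Fdps. Those of Mvk, Abca1, Sc5d and Nsdhl are shown because these were the members with the lowest p in the comparison of the groups whose promoters hold at least 1 of 3 motifs: the sterol regulatory element TCACNCCAC, the NF-Y box CCAAT and the Sp1 box GGGCGG. Each is the 250 bases before the start, read 5′ to 3′ on the strand of the gene, and capitals mark these motifs on either strand, so that ATTGG and CCGCCC are the NF-Y and Sp1 boxes of the other strand. They lie at chr5:114444019-114444268 on the plus strand (Mvk), chr4:53159896-53160145 on the minus strand (Abca1), chr9:42264301-42264550 on the minus strand (Sc5d) and chrX:72918271-72918520 on the plus strand (Nsdhl).
Mvk: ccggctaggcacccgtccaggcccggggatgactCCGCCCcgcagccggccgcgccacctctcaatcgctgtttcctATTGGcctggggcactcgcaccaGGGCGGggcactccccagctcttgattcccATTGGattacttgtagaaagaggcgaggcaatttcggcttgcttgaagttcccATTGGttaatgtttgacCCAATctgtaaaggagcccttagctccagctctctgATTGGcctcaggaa
Abca1: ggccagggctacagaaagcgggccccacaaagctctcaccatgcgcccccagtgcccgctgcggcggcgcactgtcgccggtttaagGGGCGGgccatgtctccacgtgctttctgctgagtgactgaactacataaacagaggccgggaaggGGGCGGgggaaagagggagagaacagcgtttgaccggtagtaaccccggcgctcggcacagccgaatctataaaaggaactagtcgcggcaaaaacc
Sc5d: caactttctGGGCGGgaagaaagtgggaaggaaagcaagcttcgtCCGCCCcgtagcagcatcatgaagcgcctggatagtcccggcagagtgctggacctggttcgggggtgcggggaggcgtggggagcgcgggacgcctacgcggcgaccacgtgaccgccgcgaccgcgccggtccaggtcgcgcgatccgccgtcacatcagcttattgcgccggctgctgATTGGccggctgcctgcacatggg
Nsdhl: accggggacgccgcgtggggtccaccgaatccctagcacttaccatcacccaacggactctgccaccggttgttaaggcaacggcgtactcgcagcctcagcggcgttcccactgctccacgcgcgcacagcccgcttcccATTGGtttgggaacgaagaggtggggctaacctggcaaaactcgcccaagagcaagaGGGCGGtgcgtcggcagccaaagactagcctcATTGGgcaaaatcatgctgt
The Mvk stretch holds 5 NF-Y boxes and 2 Sp1 boxes, whereas that of Abca1 holds 2 Sp1 boxes and no NF-Y box. Sc5d has 1 NF-Y box and 2 Sp1 boxes, and Nsdhl has 2 NF-Y boxes and 1 Sp1 box.

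Over the full 300 bases and both strands, with the first start listed for each gene, the NF-Y box was found in 17 of 23 member promoters (73.9%), in 37.9% of the 27025 promoters of the table and in 37.8% of the 14236 promoters of genes tested here. For the Sp1 box the count was 18 of 23 (78.3%), beside 35.9% of all promoters and 56.8% of those of tested genes. The sterol regulatory element was found in 1 of 23 (Hmgcs1, 4.35%), beside 1.22% of all promoters. None of the motifs contains another. The E-box CACGTG, left in lower case above, was found in 5 of 23 (21.7%), those of Abca1, Hsd17b7, Insig1, Sc5d and Scap. Its share was 7.24% of all promoters and 9.27% of those of tested genes. The direct repeat of AGGTCA with 4 bases between the copies, the element LXR binds with its partner RXR, was found in 0 of 23. As it was found in only 3 of the 27025 promoters (0.0111%), its absence here does not show that a promoter lacks an LXR element. When every listed start of a gene was searched, the NF-Y box was found in 18 of 23, beside 41.1% of genes in the table. The count was 20 for the Sp1 box (38.2%, and 60.4% of tested genes) and 6 for the E-box (8.09%, and 10.5% of tested genes). It was 1 for the sterol regulatory element (1.44%) and 0 for the LXR element. These are matches of letters in a short window, given as a description, and a sequence that departs from the searched letters by 1 base or more was not counted.

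Before the members are compared, 3 features of the libraries bear on them. The total count per retina was from 26289905 to 38010151, and members had from 59 to 6001 counts per retina, with at least 100 in every retina for 27 of 28 and the lowest for Nr1h3. The library OIR-Norm 2 stood apart: it was at one end of the first principal component (37.3% of the variance), and its 10 lens genes (crystallins, Mip and others) summed to 611 CPM against 25.7 to 106 CPM in the other 5 retinas. CPM are counts brought to a common library size after trimmed-mean (TMM) scaling. Xist (298 to 1650 CPM) and 4 Y-linked genes (57.3 to 184 CPM in sum) were present together in every library, so each held RNA of both sexes. For this reason n counts libraries, the number of animals in each is not known, and the word retina stands for a library throughout. The paper describes 3 eyes per group, whereas a library from a single eye would not hold RNA of both sexes. This conflict was not settled. P-values set the difference between the groups against the spread between these libraries, which the edgeR test below moderates across genes. Rod photoreceptor genes, which mark the retina, summed to between 49300 and 65600 CPM.

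To see whether CIH altered the sterol program of the ischemic retina, counts were tested with edgeR's quasi-likelihood test across all 20021 genes, with Benjamini-Hochberg adjustment. A gene was called when its adjusted p was under 0.05 and its log2 fold change exceeded 0.5 in size. None of the 28 members was called (0 of 28), where 0.315% of all genes tested were (0.105% higher and 0.21% lower in OIR-CIH), and DESeq2 and limma-voom also called 0. The lowest adjusted p of a member in this edgeR test was 0.267, and 2 members, Mvk and Abca1, had an unadjusted p under 0.05, beside 13.4% of all genes. Mvk was on the higher side, as 6.3% of all genes were at that p, and Abca1 on the lower side, as 7.09% were. In OIR-CIH, 15 members were higher and 13 lower than in OIR-Norm, where 49.1% of all genes were higher, with folds from 0.872 to 1.22 and a median log2 fold change of 0.03, beside -0.01 over all genes tested. For 18 members the log2 fold change was under 0.1 in size.

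The intervals around these values were narrow. The 95% interval of the log2 fold change lay within -0.5 to 0.5, a 1.41-fold difference in either direction, for 26 of 28 members, beside 54.4% of all genes tested and 82% of the 13247 genes counted at least as deeply as the shallowest member. The exceptions reached just past it, to 0.51 for Tm7sf2 and to 0.52 for Nr1h3. Intervals are per gene and were not widened for the number of genes. The median size of the log2 fold change was 0.08 over the members, 0.15 over all genes and 0.11 over these 13247 genes. Their depth has only a lower limit, a mean of 74.8 counts per retina, so they are not matched to the members in depth. RNA was from whole retina, where fewer cells of a type and less RNA per cell cannot be told apart.

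**Figure D1:**
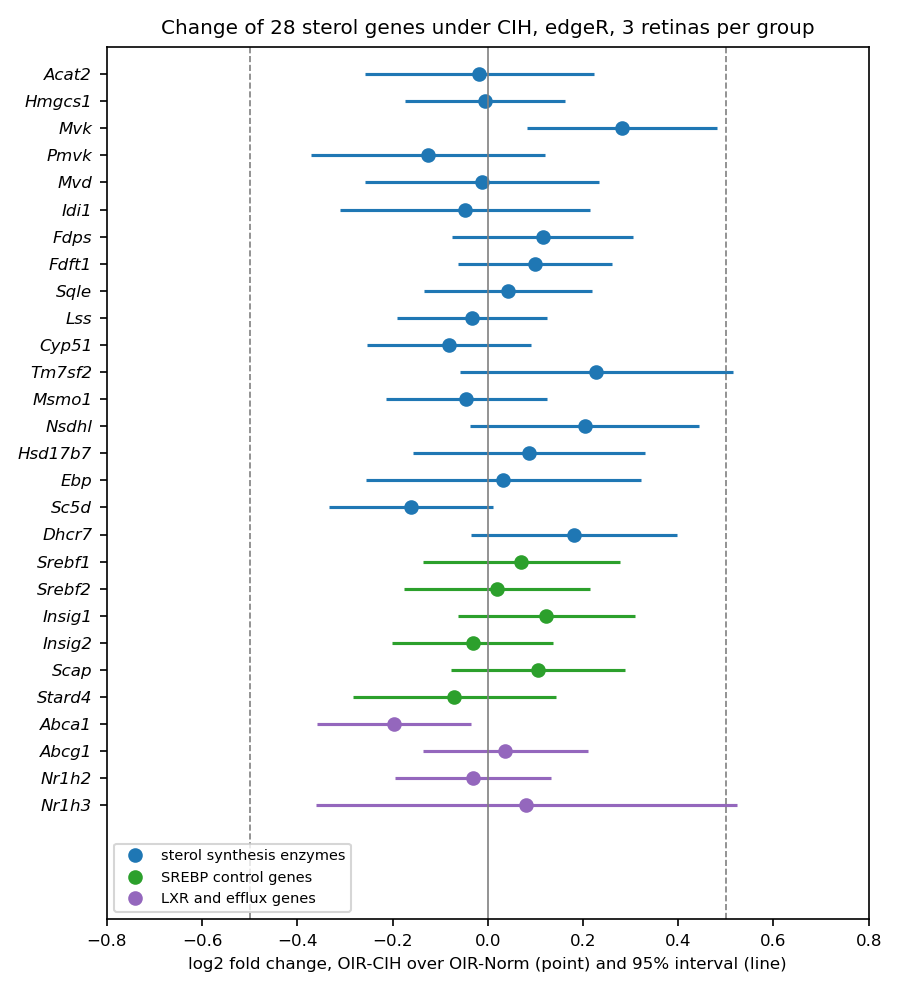
Log2 fold change (OIR-CIH over OIR-Norm) of the 28 sterol genes from edgeR (points) with 95% intervals (lines), coloured by role, 3 retinas per group. Dashed lines mark -0.5 and 0.5. Points scatter on both sides of 0, and only the lines of Mvk and Abca1 leave out 0.

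Among the 8 enzymes from acetyl-CoA to squalene, 3 were higher and 5 lower in OIR-CIH, and the median log2 fold change was -0.01. Mvk (ENSMUSG00000041939, chr5:114444269-114460591, plus strand), the kinase that puts the first phosphate on mevalonate, measured 20.1, 22.3 and 22.0 CPM in OIR-CIH retinas 1, 2 and 3. In the OIR-Norm retinas it measured 18.6, 16.6 and 17.9 CPM. Every OIR-CIH retina lay above every OIR-Norm retina. The means were 21.5 ± 1.21 and 17.7 ± 1.001 CPM (SD, n = 3 each), a log2 fold change of 0.28 with a standard error of 0.09 and a 95% interval from 0.08 to 0.48. The adjusted p was 0.267 (edgeR quasi-likelihood, Benjamini-Hochberg; unadjusted 0.00966), so Mvk did not pass the test. Without OIR-Norm 2 the log2 fold change was 0.24, with an edgeR adjusted p of 0.515. Fdft1 (ENSMUSG00000021273, chr14:63145150-63179578, minus strand), the squalene synthase, also had groups that did not overlap. Its CPM were 51.1, 47.0 and 50.9 in OIR-CIH and 45.6, 46.5 and 46.9 in OIR-Norm. OIR-CIH 2 and OIR-Norm 3 were all but level. On the log2 scale the difference was 0.10, with a standard error of 0.07 and an edgeR adjusted p of 0.594, and it was 0.10 as well without OIR-Norm 2. Of its annotated exons, 774 bases are shared with Ctsb on the opposite strand, and the setting used to count strands was not found in the sources used here.

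The other enzymes of this stretch overlapped between the groups. Hmgcs1, which makes HMG-CoA and had the highest CPM of all 18 enzymes, had 72.0 ± 5.15 CPM in OIR-CIH and 72.3 ± 2.04 in OIR-Norm (SD, n = 3). Its edgeR interval, from -0.17 to 0.16 on the log2 scale, was among the narrower ones. Pmvk, the next kinase after Mvk, went the other way in its mean, with 53.3, 40.4 and 41.9 CPM against 51.0, 43.4 and 53.1. The highest value was that of OIR-CIH 1, with the other OIR-CIH retinas below all OIR-Norm values (log2 fold change -0.13, standard error 0.11). Fdps, the farnesyl diphosphate synthase, had 30.0 ± 1.40 and 27.7 ± 2.08 CPM in OIR-CIH and OIR-Norm, a log2 fold change of 0.12 with a standard error of 0.09. It shares 1124 exon bases with Gm43738 on the same strand, so reads there cannot be assigned to either with certainty. Acat2 (cytosolic acetoacetyl-CoA thiolase), Mvd (mevalonate diphosphate decarboxylase) and Idi1 (isopentenyl diphosphate isomerase) were between -0.05 and -0.01 on the log2 scale. Their mean CPM in OIR-CIH were 13.5, 12.7 and 8.68, and in OIR-Norm 13.7, 12.8 and 8.97.

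**Figure D2:**
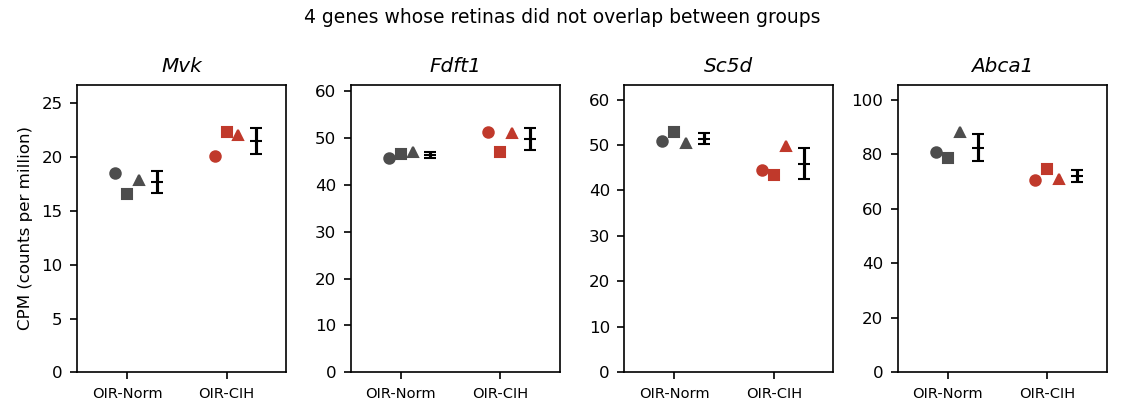
CPM of Mvk, Fdft1, Sc5d and Abca1 in each retina (symbols, the shape giving the replicate number) with the mean and SD of the group beside them (bars), n = 3 per group; the axis starts at 0. In each panel the groups are apart, while the distance between them is small against the level, as for Abca1, whose OIR-CIH values end at 74.6 CPM and whose OIR-Norm values begin at 78.6 CPM.

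Between squalene and cholesterol, 10 enzymes were listed, of which 6 were higher and 4 lower, with a median log2 fold change of 0.04. Sc5d (ENSMUSG00000032018, chr9:42251595-42264256, minus strand), a sterol desaturase that needs oxygen, measured 44.5, 43.5 and 49.8 CPM in OIR-CIH. In OIR-Norm it measured 51.0, 52.8 and 50.5 CPM. The groups did not overlap, although OIR-CIH 3 came close to the lowest OIR-Norm retina. The log2 fold change was -0.16, with a standard error of 0.08, an interval from -0.33 to 0.01 and an adjusted p of 0.403 from edgeR. Without OIR-Norm 2 it was -0.14. Dhcr7, which acts just after Sc5d to yield cholesterol or its precursor, had a mean on the other side, with 52.5, 43.9 and 48.5 CPM in OIR-CIH and 47.4, 42.8 and 37.6 in OIR-Norm. The groups overlapped, with OIR-Norm 1 inside the OIR-CIH range, and the log2 fold change came to 0.18 with a standard error of 0.10 (edgeR adjusted p = 0.458). It was 0.12 without OIR-CIH 1 and 0.10 without OIR-Norm 3. The log2 ratio of Dhcr7 to Sc5d, which was looked at after their values were known, was 0.35 higher in OIR-CIH (means 0.07 ± 0.15 and -0.28 ± 0.16, SD, n = 3). An exact two-sided permutation test of it gave p = 0.1, which is the lowest value this design can return. As the pair was taken up for its values, this p adds nothing to them.

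The other oxygen-dependent steps had log2 fold changes under 0.1 in size. Sqle, squalene epoxidase, had 51.4 ± 3.79 CPM in OIR-CIH and 49.9 ± 2.34 in OIR-Norm (SD, n = 3). Cyp51, the lanosterol demethylase, had 41.1 ± 0.74 and 43.5 ± 2.95 CPM. Msmo1, a sterol methyl oxidase, had 32.2 ± 1.46 and 33.2 ± 0.39 CPM. Their log2 fold changes were 0.04, -0.08 and -0.04, with standard errors of 0.08 each, and in all of them the groups overlapped. Lss, which closes squalene epoxide into lanosterol, varied least, with 46.7, 47.6 and 48.5 CPM in OIR-CIH and 47.6, 50.5 and 48.0 in OIR-Norm, a log2 fold change of -0.03.

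Of the remaining enzymes of this stretch, 2 had a fold among the highest of the list without groups apart. Tm7sf2, a sterol reductase, measured 16.4, 15.0 and 13.5 CPM in OIR-CIH and 10.3, 13.7 and 14.2 in OIR-Norm. OIR-Norm 1 was the lowest by far, and without it the log2 fold change of 0.23 was 0.09. Tm7sf2 also shares 532 exon bases with Vps51 on the same strand. Nsdhl, an X-linked sterol dehydrogenase, measured 19.6, 19.3 and 16.2 CPM against 16.5, 17.0 and 14.2. Here OIR-CIH 3 fell among the OIR-Norm retinas, and the log2 fold change came to 0.20 with a standard error of 0.11 (edgeR adjusted p = 0.451). Ebp, a sterol isomerase and also X-linked, differed more within the groups than between them, with 15.7, 12.2 and 17.1 CPM against 16.5, 14.3 and 13.3. Hsd17b7, a ketosteroid reductase, had 11.4 ± 0.75 and 10.8 ± 0.97 CPM. The makeup of the libraries in males and females is not known, and its part in Nsdhl and Ebp was not tested.

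**Figure D3:**
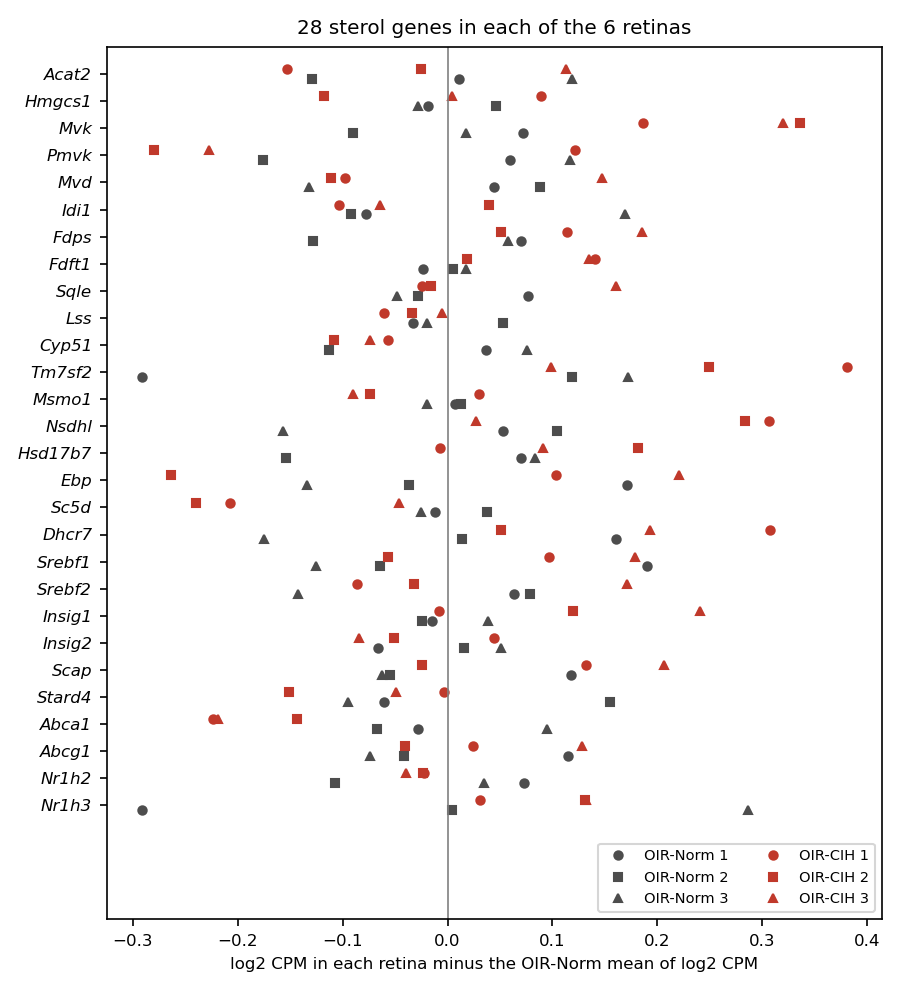
Log2 CPM of each of the 28 sterol genes in each retina minus the mean log2 CPM of the OIR-Norm retinas; OIR-CIH in red, OIR-Norm in grey, with the shape giving the replicate number. Red and grey symbols intermingle in 24 rows and are apart in those of Mvk, Fdft1, Sc5d and Abca1.

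Over the list, 4 of 28 members (14.3%) had groups that did not overlap, beside 18.4% of all genes tested. Mvk and Fdft1 were higher and Sc5d and Abca1 lower in OIR-CIH, where 9.12% and 9.26% of all genes were apart in the 2 directions. These shares of the members are near those of genes at large. No retina led throughout: OIR-CIH 3 held the highest value for 8 members and OIR-CIH 1 for 7, whereas OIR-Norm 3 held the highest for 6 and the lowest for 8. The mean log2 CPM of the 18 enzymes, centred on the 6 retinas, was 0.04, -0.02 and 0.05 in OIR-CIH and 0.00, -0.05 and -0.02 in OIR-Norm, so the groups overlapped in it.

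The SREBP control genes were all uncalled, with 4 higher and 2 lower and a median log2 fold change of 0.04. Srebf2, which encodes the SREBP that acts mainly on sterol genes, measured 110, 114 and 131 CPM in OIR-CIH and 122, 123 and 106 in OIR-Norm. Srebf1, whose products act mainly on fatty acid genes, measured 130, 117 and 138 CPM against 139, 116 and 112. In both genes the groups overlapped, and the log2 fold changes were 0.02 and 0.07 with standard errors of 0.09 and 0.10. The log2 ratio of Srebf1 to Srebf2 differed by 0.06 between the groups (exact two-sided permutation p = 0.6). Insig1, the Insig that SREBP itself induces, measured 32.6, 35.6 and 38.7 CPM in OIR-CIH and 32.4, 32.2 and 33.6 in OIR-Norm. OIR-CIH 1 lay within the narrow OIR-Norm range, the others above it, and the log2 fold change came to 0.12 with a standard error of 0.09 (edgeR adjusted p = 0.567). Insig2, which is under other control, had 41.2 ± 1.93 and 42.0 ± 1.74 CPM. The log2 ratio of Insig1 to Insig2 differed by 0.15 between the groups (exact two-sided permutation p = 0.4). Scap, the escort of SREBP, had the highest CPM of the 28 members, 148 ± 11.96 against 138 ± 9.94, a log2 fold change of 0.11. Stard4, a carrier of sterol in the cytosol and a target of SREBP, had 19.2 ± 0.997 and 20.2 ± 1.94 CPM, a log2 fold change of -0.07.

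On the export side, Abca1 was lower in OIR-CIH and Abcg1 was not apart. Abca1 (ENSMUSG00000015243, chr4:53030787-53159895, minus strand), which hands cholesterol and phospholipid to lipid-poor apolipoproteins, measured 70.5, 74.6 and 70.8 CPM in OIR-CIH. In OIR-Norm it measured 80.8, 78.6 and 88.0 CPM. The groups did not overlap, and the means were 72.0 ± 2.25 and 82.5 ± 4.91 CPM (SD, n = 3). The log2 fold change was -0.20, with a standard error of 0.07 and an interval from -0.36 to -0.03. The adjusted p was 0.304 (edgeR, Benjamini-Hochberg; unadjusted 0.0213), so Abca1 did not pass either. Without OIR-Norm 2 the log2 fold change was -0.23 and the edgeR adjusted p 0.44. Abcg1, which passes cholesterol on to mature lipoprotein, measured 118, 113 and 127 CPM against 125, 113 and 110. The log2 ratio of Abca1 to Abcg1 was -0.72 ± 0.12 in OIR-CIH and -0.49 ± 0.16 in OIR-Norm (SD, n = 3), a difference of -0.23 with an exact two-sided permutation p of 0.2. Differences in the LXR receptors themselves were small. Nr1h2, LXR beta, had 59.4 ± 0.38 and 60.7 ± 3.93 CPM. Nr1h3, LXR alpha, was the shallowest member at 2.51 ± 0.10 and 2.37 ± 0.47 CPM, and its log2 interval from -0.36 to 0.52 was the widest of the 28.

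Markers of other cells are given here because sterol export differs between cell types. The sums of the microglia and astrocyte markers were apart between the groups, and those of the other lists in this paragraph overlapped. For comparison, 18.4% of all genes tested were apart and 49.1% were higher in OIR-CIH. The 12 microglia markers summed to between 108 and 125 CPM in OIR-CIH and between 130 and 149 CPM in OIR-Norm. Lower in OIR-CIH were 11 of the 12, and 6 of these were apart. The 6 astrocyte markers summed to between 125 and 138 CPM against 190 to 250 CPM. That sum was carried by Gfap (63.8 against 142 CPM in the means), and 4 of the 6 were lower in OIR-CIH while Igsf1 and Fgfr3 were higher. Apart and lower were Pax2, Gfap and Pdgfra, with Igsf1 apart and higher. In OIR-CIH all 10 rod markers were higher, by a median of 0.18 on the log2 scale, and 3 of them were apart (Pde6b, Nrl and Nr2e3), although their sums overlapped (56500 to 65600 against 49300 to 64800 CPM). The summed Müller glia markers (3930 to 4700 against 3910 to 4330 CPM) and pigment epithelium markers (739 to 993 against 552 to 913 CPM) overlapped as well, but single genes of both lists did not. Of 12 Müller glia markers Rlbp1 and Car14 were apart and higher and Aqp4 and Abca8a apart and lower, and of 12 pigment epithelium markers Ttr, Lrat and Otx2 were apart and higher, with 6 of the 12 higher and 6 lower. Of 10 endothelial markers 8 were lower, none of them apart. Myelin markers (74.2 to 81.4 against 68.8 to 76.3 CPM) overlapped in their sums, and 0 of the 9 tested were apart. Of the markers of these 7 lists Gfap alone was called by edgeR. The part of these cells in the values of Abca1, Mvk, Sc5d and Fdft1 was not tested.

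**Figure D4:**
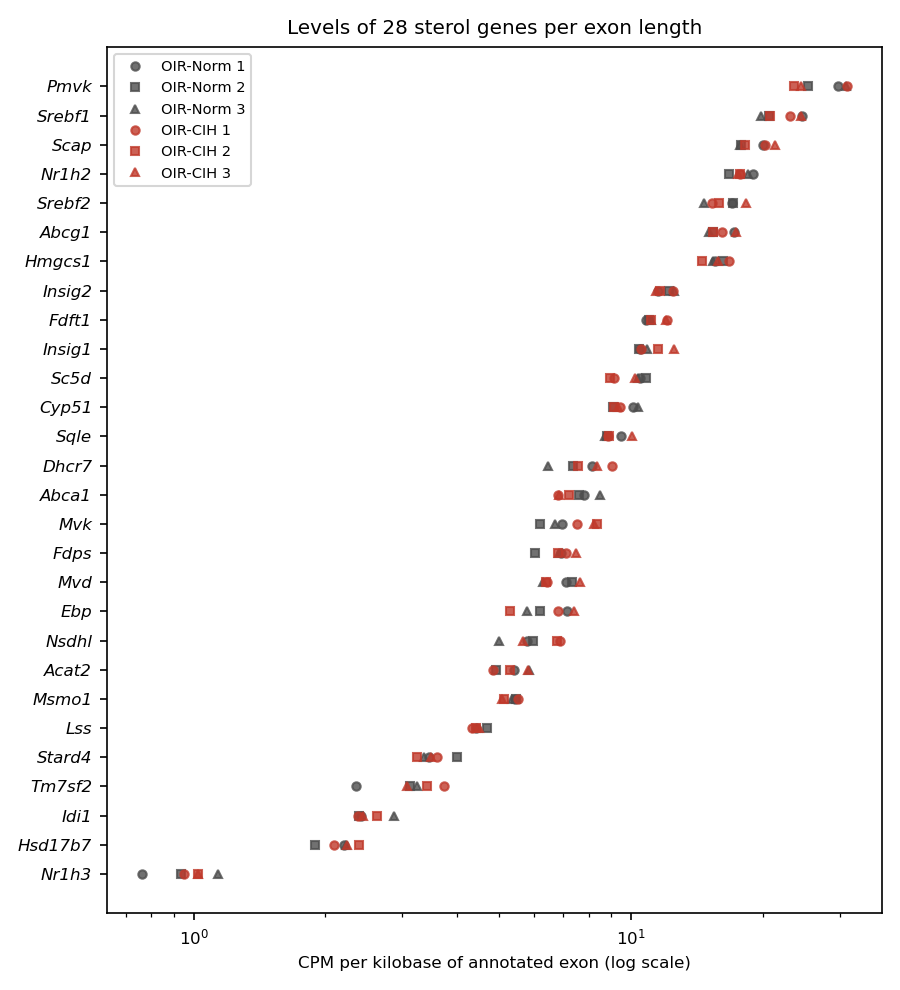
CPM per kilobase of annotated exon of the 28 sterol genes in each retina (log axis), ordered by the mean over the 6 retinas; OIR-CIH in red, OIR-Norm in grey. Levels run from Pmvk at 27.5 to Nr1h3 at 0.97, and most neighbours overlap.

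Levels of different genes were compared per kilobase of annotated exon (GENCODE M21), over the 6 retinas. Pmvk had the highest mean with 27.5 ± 3.48 CPM per kilobase (SD, n = 6), and the next means were those of Srebf1 with 22.2 ± 2.10, Scap with 19.2 ± 1.53, Nr1h2 with 17.9 ± 0.77 and Srebf2 with 16.4 ± 1.32. Among the enzymes, Hmgcs1 (15.7 ± 0.76), Fdft1 (11.4 ± 0.56) and Sc5d (10.0 ± 0.77) came after Pmvk, and Tm7sf2 (3.15 ± 0.46), Idi1 (2.52 ± 0.19) and Hsd17b7 (2.17 ± 0.17) were lowest. Nr1h3 was below all of them, with 0.97 ± 0.12 CPM per kilobase. Of the 27 pairs of neighbours in this order, 23 had ranges that overlapped over the 6 retinas. Gaps lay between Hmgcs1 and Insig2, Msmo1 and Lss, Lss and Stard4, and Hsd17b7 and Nr1h3. Compared within each retina, 6 pairs had the same order in all 6, these 4 and also Srebf1 over Scap and Idi1 over Hsd17b7, and the order of the other 21 differed between retinas. Exon lengths count every annotated exon, so a gene with a long rarely used exon is placed too low.

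To set the members among related genes, 73 genes of neighbouring pathways were read from the same fit. None was called (0 of 73), beside 0.315% of all genes, 10 had an unadjusted p under 0.05, beside 13.4% of all genes, and the lowest edgeR adjusted p was 0.184.

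Of 14 fatty acid genes under SREBP, 9 were higher and 5 lower, with a median log2 fold change of 0.04. Acaca, acetyl-CoA carboxylase, had the lowest p of them and measured 87.2, 90.5 and 93.1 CPM in OIR-CIH against 110, 107 and 103, without overlap (log2 fold change -0.24, adjusted p = 0.228 from edgeR). Scd2 and Fads2, desaturases of fatty acids, had log2 fold changes of 0.20 and 0.17. The 25 genes of sterol transport, storage and oxidation split into 12 higher and 13 lower, of which 2 and 4 had an unadjusted p under 0.05. Ch25h, which makes the oxysterol that restrains SREBP processing and is known from macrophages, had the lowest p of all 73. It had 12, 14 and 31 counts in OIR-CIH and 38, 46 and 42 in OIR-Norm, or 0.47, 0.49 and 0.82 against 1.23, 1.61 and 1.32 CPM. The groups were apart, but the counts were few (log2 fold change -1.16, standard error 0.31, adjusted p = 0.184 from edgeR). Scarb1, a lipoprotein receptor, measured 223, 222 and 216 CPM in OIR-CIH and 196, 183 and 173 in OIR-Norm, apart in the other direction (log2 fold change 0.26, adjusted p = 0.207 from edgeR). Stard3, a sterol carrier of late endosomes, had a log2 fold change of 0.26.

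In the 11 genes of SREBP maturation and enzyme turnover, 7 were higher and 4 lower, and the ubiquitin ligases Rnf139 and Rnf145 and the ligase cofactor Aup1 had log2 fold changes of 0.22, 0.08 and 0.14. In the isoprenoid branch, which draws on the same mevalonate, 8 genes were higher and 4 lower, with Pggt1b (a prenyltransferase subunit) at -0.22, Dhdds (dolichol synthesis) at 0.16 and Coq2 (ubiquinone synthesis) at 0.16. Of 11 LXR partners, relatives and other LXR targets 6 were higher and 5 lower, with Arl4c, an LXR target, at 0.19, the corepressor Ncor1 at -0.14 and the bile acid receptor gene Nr1h4 at -0.24. None of these passed the edgeR test. Medians of the lists lay between -0.03 and 0.07 on the log2 scale.

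**Figure D5:**
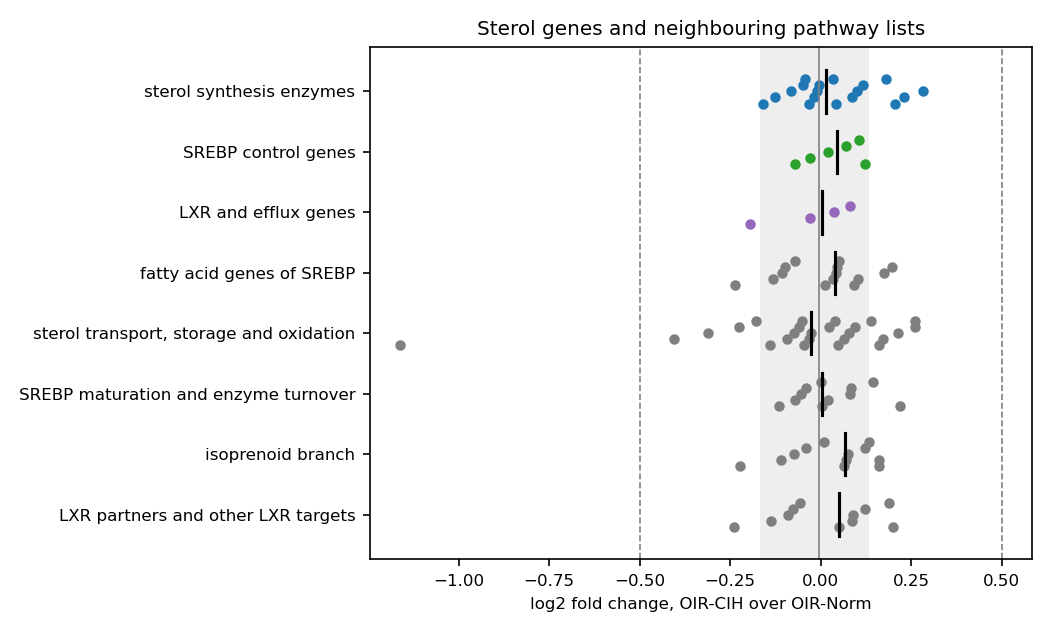
Log2 fold change (OIR-CIH over OIR-Norm, edgeR) of the sterol genes by role (coloured) and of 73 genes in neighbouring lists (grey), with the median of each list as a black bar; the band spans the lower to the upper quartile of all genes tested, from -0.17 to 0.13, and dashed lines mark -0.5 and 0.5. Ch25h alone lies past the dashed lines, and it was not called.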

How the data were processed

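The authors describe RNA from 3 OIR-CIH and 3 OIR-Norm retinas and poly(A)-selected stranded libraries prepared from 250 ng. They deposited raw read counts per gene, one column per library, without normalization. The submitters' processing notes name STAR 2.7.9a, GRCm38 and DESeq; the methods text names a later Ensembl release, so the build behind the counts was not settled. Counts were tested here with edgeR 4.0.16 in R 4.3.3 (quasi-likelihood, trimmed mean of M-values, no covariate), on genes with 10 or more counts in total. Standard errors were taken from the log2 fold change and its F value, and 95% intervals from the t quantile. Symbols, lengths and positions came from GENCODE M21 (GRCm38) by gene identifier, with 32158 of 32285 identifiers matched. DESeq2 1.42.0, limma-voom (limma 3.58.1), other scalings and filters, a replicate block and leaving out each retina were alternatives. Methods were tested on simulated data. The 28 members and the other lists were chosen with earlier results of these data known, so no p was adjusted over a list. All 28 members are named, with full values for those with an unadjusted p under 0.05 or groups apart; in each other list the 3 lowest p are named. Some other genes of these pathways were not analysed here. What the replicate numbers mark is not stated, and they were not used to pair the samples. Same-numbered retinas deviated together with r = 0.162, 0.143 and -0.238, which cannot settle whether they share a litter or batch.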

Additional observations from a re-analysis of the deposited data

How the results depend on the processing

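In each of 13 alternative fits 0 of the 28 members were called, and the lowest adjusted p of a member in any of them was 0.208 (Mvk, DESeq2). The number of genes called over the whole table was 135 with DESeq2 (63 in the edgeR test) and from 29 (without OIR-CIH 1) to 97 (without OIR-Norm 3) when 1 retina was left out. Adding a replicate block gave 68 calls, of which 48 were shared with the 63, and 0 members. Same-numbered retinas did not correlate in every pair, and not every retina correlated best with its own number. What the numbers mark is not stated, and they are not taken to pair the samples. The median log2 fold change of the 18 enzymes was from -0.02 to 0.04 without single retinas. Of 364 values of members under alternatives, 20 changed sign, all in fits without 1 retina, and 17 members never did. The genes whose sign turned, with the range of their log2 fold change without single retinas, were Acat2 (-0.095 to 0.042), Hmgcs1 (-0.058 to 0.046), Mvd (-0.11 to 0.034), Idi1 (-0.094 to 0.042), Sqle (-0.025 to 0.077), Ebp (-0.080 to 0.16), Srebf2 (-0.065 to 0.068), Stard4 (-0.12 to 0.010), Abcg1 (-0.014 to 0.092), Nr1h2 (-0.083 to 0.00028), Nr1h3 (-0.061 to 0.24). The cause was not tested, and in each of these the log2 fold change over all 6 retinas was smaller than its standard error. Mvk kept a log2 fold change from 0.24 to 0.32 and Abca1 from -0.23 to -0.15 in these fits. Counts of genes called rest on 3 libraries per group; a difference smaller than the printed intervals could not be seen at this number.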
